A study of Homo sapiens with 6 samples.

Results

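The 10 genes described here are FN1, which encodes the matrix protein fibronectin, and 9 genes of integrin subunits, the transmembrane receptors by which cells hold on to fibronectin, laminin and collagen. They were taken from a table of 18795 genes by Entrez Gene ID, and all 10 were present and passed the filter on low values. Messenger RNA was sequenced from sorted cells of MDA-MB-468 and HCC70, which are human lines of basal-like breast cancer. The sorted populations were K18+Vim+ (positive for keratin 18 and vimentin), K18+K14+ (positive for keratin 18 and keratin 14) and K18+ (positive for keratin 18). The labels name no engineered allele and no drug. MDA-MB-468 was grown in Leibovitz L15 medium and HCC70 in RPMI, both with serum. All cells were released with trypsin and EDTA, fixed in cold methanol and stained before the sort. Each population gave 1 library per line, 6 in all, so a population has n = 2 and the lines are its only replicates. No label says that libraries came from separate cultures, so p-values measure the spread between these samples.

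Each integrin is a pair of 1 alpha and 1 beta subunit, and the pair decides the ligand. The pair of ITGA5 and ITGB1 is the classical fibronectin receptor. ITGAV pairs with ITGB1, ITGB5 or ITGB6 to bind fibronectin, vitronectin and the latent form of TGF-beta. ITGA6 with ITGB4 anchors basal epithelial cells to laminin in hemidesmosomes, ITGA3 with ITGB1 also binds laminin, and ITGA2 with ITGB1 binds collagen. In breast epithelium these laminin receptors are typical of the basal layer, and fibronectin is a common marker of mesenchymal change.

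Values are FPKM as deposited, fragments scaled to transcript length and library size, with no record of how many reads lie behind them, so the depth is unknown. 1 library, labelled K18+Vim+ of MDA-MB-468, went against its label in genes that mark the line. SMAD4 and RB1, deleted in MDA-MB-468, were listed at 5.19 and 6.68 FPKM there, against 0.269 to 0.566 FPKM in the other libraries of the line. EGFR, amplified in MDA-MB-468, stood at 10.4 FPKM there against 70.7 and 153 FPKM. All 4 epithelial markers checked (EPCAM, CDH1, KRT8 and KRT19) were lowest in that library, with a summed level of 127 FPKM against 1089 to 2471 FPKM in the other 5. It keeps that name here, and several of the fits, counts and means that use it are also given without it. Within each line VIM was highest after the K18+Vim+ sort and KRT14 after the K18+K14+ sort. The library below all 5 others in 5 members (ITGAV, ITGB5, ITGB6, ITGB4 and ITGA3) was the one labelled K18+Vim+ of MDA-MB-468, which was so for 22.7% of genes. The summed level of 7 fibroblast markers was 4.59 to 10.9 FPKM over the 6 libraries, of which COL1A1 was the highest in each library, and that of 5 endothelial markers was 0.5 to 1.57 FPKM, with PECAM1 and TEK at the floor of 0.1 FPKM everywhere. The summed level of 6 leukocyte markers was 2.17 to 8.06 FPKM. CD68 was the highest of these in each HCC70 library, at 5.82 to 6.61 FPKM.

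FN1 (Entrez Gene 2335) had its lowest value in the K18+K14+ library of each line. In MDA-MB-468 the level was 16.9 FPKM for the library labelled K18+Vim+, 6.11 FPKM for K18+K14+ and 25.2 FPKM for K18+ cells. In HCC70 the level was 81.6 FPKM for K18+Vim+, 10.3 FPKM for K18+K14+ and 50.1 FPKM for K18+ cells. The 2 K18+K14+ values lie below the other 4, so both K18+K14+ libraries were below both K18+ libraries, as for 20.3% of genes and for ITGAV, ITGB6 and ITGA6 among the members, and below both K18+Vim+ libraries, as for 11.7% of genes and no other member. The log2 ratio of K18+K14+ to K18+, on the scale of log2(FPKM + 1), was -1.88 in MDA-MB-468 and -2.18 in HCC70. The readthrough transcript TGIF2-RAB5IF, singled out by this ranking, was the 1 other gene of 12454 tested with ratios at least as low in both lines. The fitted difference was -2.03 ± 0.49 (SE, 2 libraries per population, limma adjusted p = 0.855), so FN1 did not pass the threshold of 0.05. FN1 was among the members because earlier results of these data had named it, and its rank is a description.

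The promoters of FN1, of ITGB1 and of ITGB6 are shown as the 250 bases upstream of the RefSeq gene start in GRCh38.p14, 5′ to 3′ on the minus strand for each. FN1 and ITGB1 were the members with the lowest ratios of K18+K14+ to K18+, and ITGB6 is a member of restricted epithelial range. ITGB4, also of restricted epithelial range, had no promoter at the annotated start in the source used. Capitals mark 3 motifs searched on both strands: TGACGTCA, the cAMP response element, GGGCGG, the GC box bound by SP1, and CAGGTG, an E-box of the kind bound by SNAI and ZEB factors. Overlapping GC boxes run together in the capitals.
FN1 (chr2:215436069-215436318): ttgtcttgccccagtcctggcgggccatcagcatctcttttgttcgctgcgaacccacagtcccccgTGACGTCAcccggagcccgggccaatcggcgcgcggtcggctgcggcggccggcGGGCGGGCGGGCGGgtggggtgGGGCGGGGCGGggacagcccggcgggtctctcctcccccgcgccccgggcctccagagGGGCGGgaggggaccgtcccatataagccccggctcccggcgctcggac
ITGB1 (chr10:32958231-32958480): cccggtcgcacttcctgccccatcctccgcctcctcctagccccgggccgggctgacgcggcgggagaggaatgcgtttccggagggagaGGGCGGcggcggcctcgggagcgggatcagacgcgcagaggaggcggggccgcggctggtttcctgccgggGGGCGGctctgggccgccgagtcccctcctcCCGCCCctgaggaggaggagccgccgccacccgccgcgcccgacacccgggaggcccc
ITGB6 (chr2:160200273-160200522): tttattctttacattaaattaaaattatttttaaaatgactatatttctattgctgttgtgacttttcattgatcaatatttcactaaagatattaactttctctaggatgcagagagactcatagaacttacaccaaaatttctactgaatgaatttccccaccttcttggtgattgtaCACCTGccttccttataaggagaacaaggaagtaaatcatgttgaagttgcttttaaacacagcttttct
The FN1 window holds 1 cAMP response element, which 1.79% of 24885 gene promoters of this length hold, and 6 GC boxes, which 41.7% hold at least once. Its content of G and C was 76.4%, and that of the ITGB1 window, which has 3 GC boxes, was 78.4%. Of the members not shown, ITGA2 had 76.4% with 4 GC boxes, ITGAV 70.8% with no GC box and ITGA5 70.0% with 1. ITGB5 had 52.8% with 2 GC boxes. ITGA6 had 50.8% with no GC box and 2 E-boxes. The ITGB6 window has 30.0% G and C, against a median of 57.6% over all promoters, and holds no GC box and 1 E-box, which 17.4% of promoters hold. Of the members, 8 had a promoter at the annotated start in the table used. A match of letters is a description of the window and says nothing of what binds there.

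**Figure D1:**
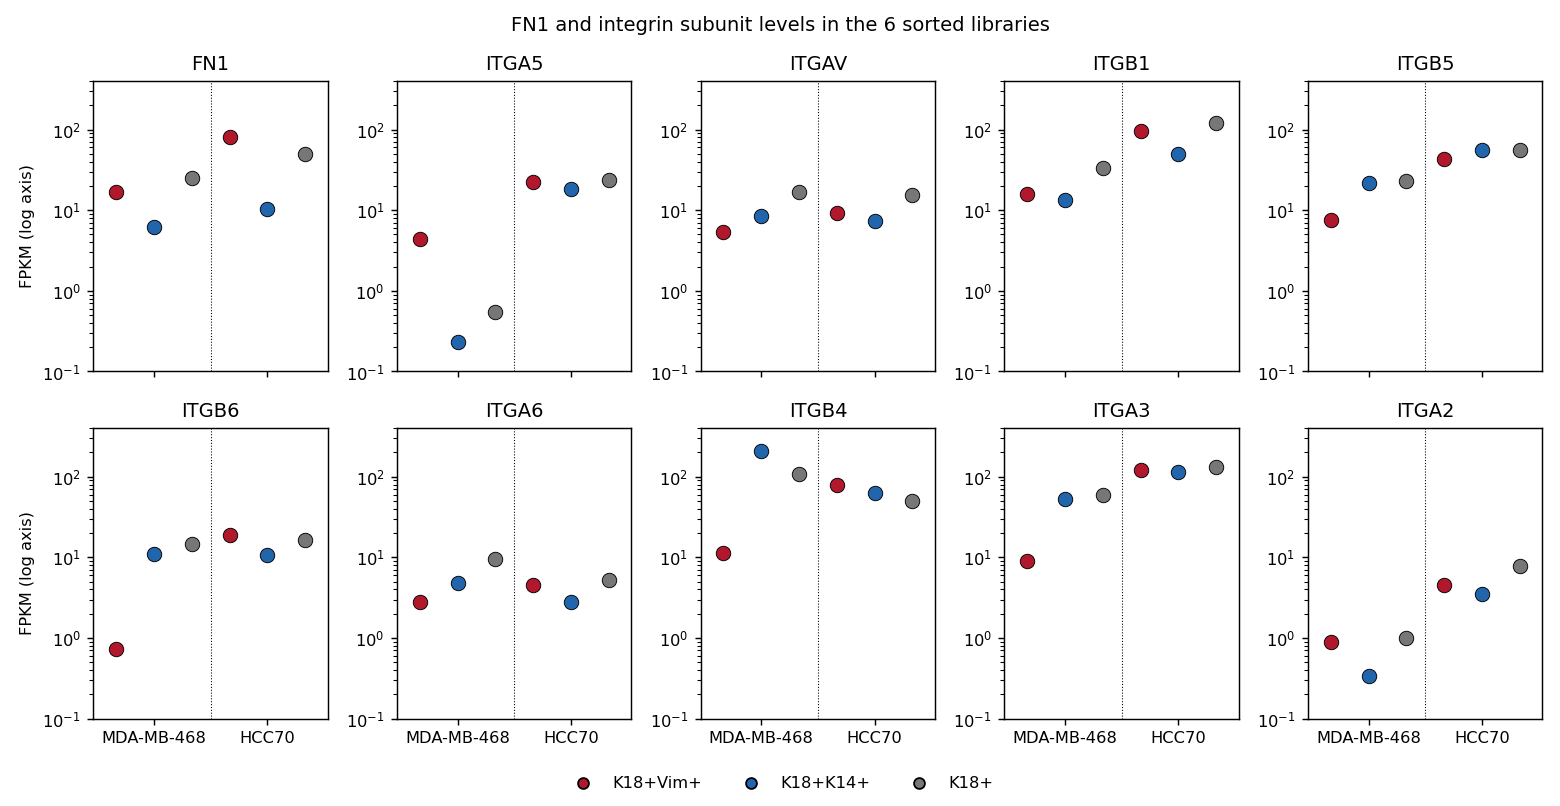
FPKM of FN1 and the 9 integrin subunit genes (1 panel per gene, logarithmic axis) in the 6 libraries, with MDA-MB-468 left and HCC70 right of the dotted line and 1 point per library. FN1 is lowest in the K18+K14+ library of each line, at 6.11 and 10.3 FPKM, and ITGA5 lies below 1 FPKM in 2 of the 3 libraries labelled MDA-MB-468.

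Setting K18+K14+ beside K18+ cells addresses the transcripts that go with keratin 14, and the beta subunit shared by most fibronectin and laminin receptors had lower values in the keratin 14 cells of both lines. ITGB1 (Entrez Gene 3688) stood at 13.5 FPKM in K18+K14+ against 33.3 FPKM in K18+ cells of MDA-MB-468, and at 49.9 against 119.9 FPKM in HCC70. Its log2 ratio was -1.24 in MDA-MB-468 and -1.25 in HCC70, nearly equal in lines whose levels differ. Other genes at least as low in both lines numbered 24, or 0.193% of those tested. The fitted difference was -1.25 ± 0.41 (SE, 2 libraries per population, limma adjusted p = 0.855).

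Of the alpha subunits that pair with ITGB1 or other beta subunits to bind fibronectin, ITGAV followed the same direction. ITGA5 had the same sign with smaller log2 ratios. ITGAV (Entrez Gene 3685) stood at 8.53 FPKM in K18+K14+ against 16.8 FPKM in K18+ cells of MDA-MB-468, and at 7.39 against 15.4 FPKM in HCC70. The 2 K18+K14+ values lie below the 2 K18+ values, and the log2 ratios were -0.90 in MDA-MB-468 and -0.96 in HCC70. ITGA5 (Entrez Gene 3678) stood at 0.229 FPKM in K18+K14+ against 0.542 FPKM in K18+ cells of MDA-MB-468, which are levels near the floor. Its log2 ratio in MDA-MB-468 was -0.33, understated by the added 1 FPKM at such low levels. In HCC70 ITGA5 stood at 18.5 against 23.9 FPKM, a log2 ratio of -0.35.

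The beta subunits that pair with ITGAV alone had log2 ratios nearer to 0 than ITGAV. ITGB5 (Entrez Gene 3693), which forms the vitronectin receptor, stood at 21.9 FPKM in K18+K14+ against 23.1 FPKM in K18+ cells of MDA-MB-468 and at 56.3 against 55.5 FPKM in HCC70. Its log2 ratios of -0.08 and 0.02 were the smallest of the members in this comparison. ITGB6 (Entrez Gene 3694), an epithelial subunit that binds latent TGF-beta, stood at 11.0 against 14.5 FPKM in MDA-MB-468 cells and at 10.6 against 16.6 FPKM in HCC70 cells. The 2 K18+K14+ values of ITGB6 were alike and both lay below the K18+ values.

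Among the laminin receptor subunits, ITGB4 was the member with higher values in the K18+K14+ library of both lines. ITGB4 (Entrez Gene 3691), whose long cytoplasmic tail links to keratin filaments through plectin, stood at 208 FPKM in K18+K14+ against 109 FPKM in K18+ cells of MDA-MB-468, and at 63.7 against 49.7 FPKM in HCC70. The log2 ratios were 0.93 in MDA-MB-468 and 0.35 in HCC70, and the fitted difference was 0.64 ± 1.01 (SE, 2 libraries per population, limma adjusted p = 0.916). Its sole partner ITGA6 (Entrez Gene 3655) had lower values, at 4.84 against 9.49 FPKM in MDA-MB-468 cells and 2.76 against 5.23 FPKM in HCC70 cells. ITGA6 is overlapped by exons of 3 annotated genes on the opposite strand, and strand-specific counting is not given in the sources used here, so its values are uncertain. The same holds for ITGA5 and ITGAV, each with 1 such gene, and ITGB6 shares exon sequence with 1 gene on its own strand.

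ITGA3 (Entrez Gene 3675), of the 5 alpha subunit members the one of highest FPKM in every library, had log2 ratios of -0.16 in MDA-MB-468 and -0.21 in HCC70. It stood at 52.4 FPKM in K18+K14+ against 58.6 FPKM in K18+ cells of MDA-MB-468 and at 114 against 132 FPKM in HCC70. ITGA2 (Entrez Gene 3673), the collagen-binding subunit, stood at 0.338 against 0.994 FPKM in MDA-MB-468 cells and at 3.51 against 7.77 FPKM in HCC70 cells. The log2 ratios of ITGA2 were -0.58 in MDA-MB-468, understated by the added 1 FPKM at such low levels, and -0.96 in HCC70.

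In all, 8 of the 10 members were lower in the K18+K14+ library of both lines, 1 (ITGB4) was higher in both, and 1 (ITGB5) differed in sign. Over all 12454 genes tested 43.7% were lower in both lines, 20.2% were higher in both and 34.5% differed in sign. Lower by at least 1 on the log2 scale in both lines were 2 members, FN1 and ITGB1, and 0.739% of all genes. The median log2 ratio of the members was -0.47 in MDA-MB-468 and -0.67 in HCC70, against -0.17 and -0.15 over all genes. None of the members and 0% of genes passed with limma, in which the line was a block. FN1 and ITGB1 had an unadjusted p under 0.05, as did 3.44% of genes. Leaving out the library labelled K18+Vim+ of MDA-MB-468 cannot move these fitted differences, and changed the spread alone (limma adjusted p = 0.389 for FN1 and for ITGB1). In bulk samples, fewer cells of a type and less RNA per cell cannot be told apart.

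Transcript length moved with this comparison. Across genes, the Spearman correlation between the log2 ratio and the length of the longest coding transcript was -0.325 in MDA-MB-468 and -0.248 in HCC70, over genes, which are not independent replicates, and all 10 members, at 3784 to 8905 bases, are longer than the median of 3313 bases. FN1 is the longest. After a correction for length in each library, FN1 had log2 ratios of -1.44 in MDA-MB-468 and -1.88 in HCC70, ITGB1 had -0.94 and -1.06, and ITGB4 had 1.34 and 0.60. With that correction 5 members were lower in both lines in place of 8 as deposited, and ITGB5, ITGB4 and ITGA3 were higher in both. The share of all genes lower in both lines after the correction was not taken.

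**Figure D2:**
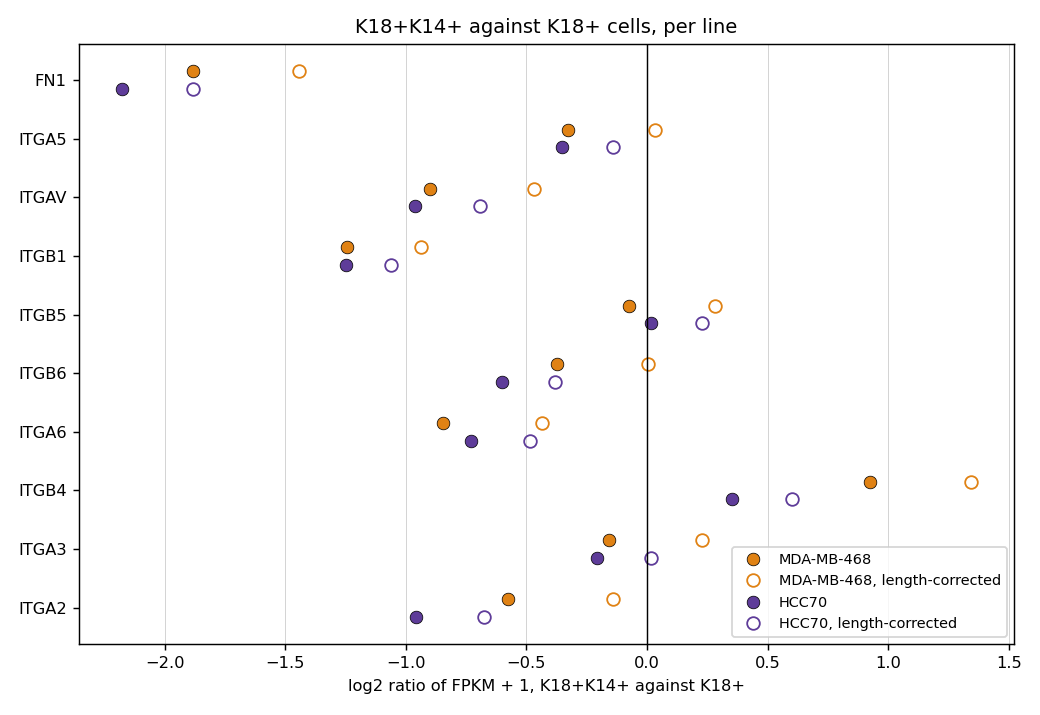
Log2 ratio of FPKM + 1 of K18+K14+ against K18+ cells for each member, 1 point per line, with filled points as deposited and open points after correction for transcript length. FN1 and ITGB1 lie furthest to the left in both lines, at -1.88 and -1.24 in MDA-MB-468 and -2.18 and -1.25 in HCC70, and ITGB4 lies to the right of 0.

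Because a share within a library does not depend on its scaling, the make-up of the beta subunit mRNA was compared too, over the 4 beta subunit genes and per transcript length. ITGB4 made up 81.8% of it in K18+K14+ against 60.6% in K18+ cells of MDA-MB-468, and 35.3% against 20.6% in HCC70. ITGB1 made up 5.30% against 18.5% in MDA-MB-468 and 27.7% against 49.6% in HCC70. The level of ITGB4 over that of ITGB1 was thus 15.4 in K18+K14+ against 3.27 in K18+ cells of MDA-MB-468 and 1.28 against 0.414 in HCC70. In both lines the ratio was higher in the keratin 14 cells, while MDA-MB-468 had more ITGB4 than ITGB1 in both of these libraries. In the libraries labelled K18+Vim+ ITGB4 made up 32.4% in MDA-MB-468 and 33.3% in HCC70, and ITGB1 made up 44.3% and 40.5%. With 1 library per population and line these shares have no replicate within a line.

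**Figure D3:**
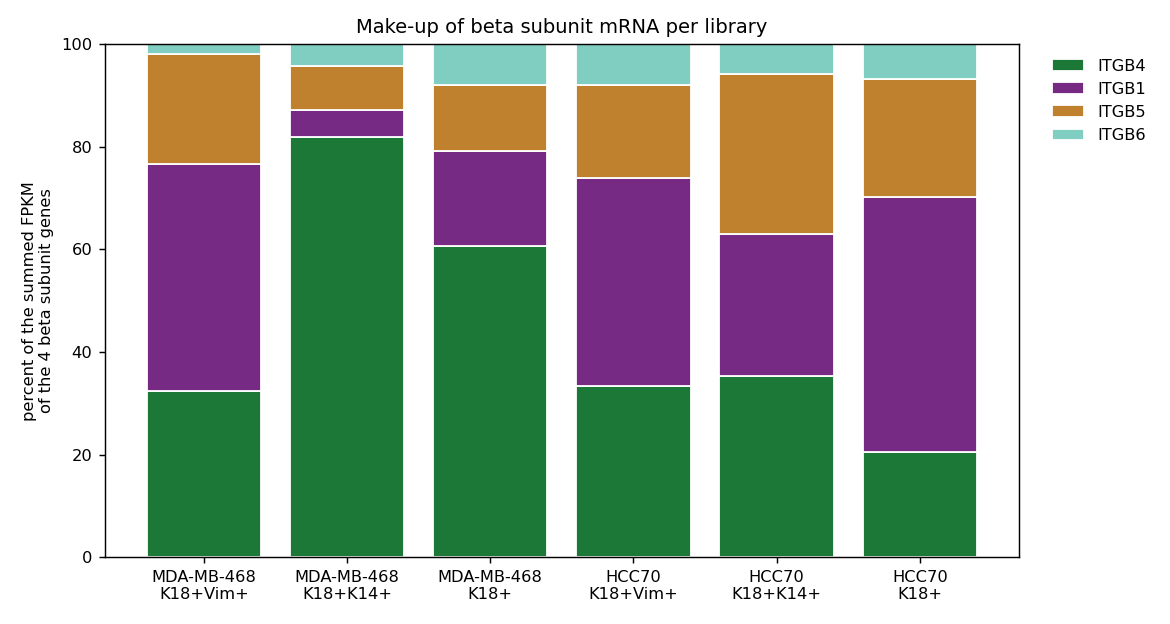
Share of each gene in the summed FPKM of the 4 beta subunit genes, as stacked bars from 0 to 100% for each library. ITGB4 takes 81.8% in K18+K14+ against 60.6% in K18+ cells of MDA-MB-468, and 35.3% against 20.6% in HCC70.

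Levels of subunits that form 1 receptor differed widely. ITGB4 exceeded its partner ITGA6 43.0-fold in K18+K14+ against 11.5-fold in K18+ cells of MDA-MB-468, and 23.1-fold against 9.50-fold in HCC70. ITGB6 stood at 1.28 times the level of ITGAV in K18+K14+ against 0.862 times in K18+ cells of MDA-MB-468 and at 1.44 against 1.08 times in HCC70. After the K18+Vim+ sort ITGB6 stood at 0.134 times the level of ITGAV in the library labelled MDA-MB-468 and at 2.07 times in HCC70. ITGA3 made up 79.0% of the summed FPKM of the 5 alpha subunit members in K18+K14+ cells of MDA-MB-468 and 78.1% in those of HCC70. These ratios compare mRNA per length and not protein at the surface, where ITGB1 also serves alpha subunits that were not listed here.

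Setting K18+Vim+ beside K18+ cells addresses the transcripts that go with vimentin, and for 4 members the ratios of the lines had opposite signs, a difference that was not tested. In HCC70, FN1 and ITGB4 had the higher values in K18+Vim+ cells. FN1 stood at 81.6 FPKM against 50.1 FPKM in K18+ cells, a log2 ratio of 0.69, and ITGB4 at 78.8 against 49.7 FPKM, a ratio of 0.66. ITGAV and ITGA2 had lower values, at 9.13 against 15.4 FPKM and 4.49 against 7.77 FPKM. ITGB1 stood at 95.9 against 119.9 FPKM and ITGB5 at 43.0 against 55.5 FPKM. The remaining 4 members had log2 ratios between -0.15 and 0.17 in HCC70. No member reached 1 in size there, which 5.07% of genes did.

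The library labelled K18+Vim+ of MDA-MB-468 had 9 members lower than in the K18+ library of that line, and 52.0% of all genes were. ITGB6 stood at 0.722 against 14.5 FPKM, ITGB4 at 11.5 against 109 FPKM and ITGA3 at 9.10 against 58.6 FPKM, with log2 ratios of -3.17, -3.14 and -2.56. ITGB5 stood at 7.52 against 23.1 FPKM, ITGAV at 5.38 against 16.8 FPKM and ITGA6 at 2.77 against 9.49 FPKM. ITGA5 was the exception, at 4.40 against 0.542 FPKM, a log2 ratio of 1.81. Of the members 8 passed 1 in size there, as did 28.5% of genes. The low epithelial markers and the unlike SMAD4, RB1 and EGFR values given above belong to the same library, and their part in these differences was not tested.

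With both lines in the fit, 0 of 10 members and 0% of genes passed in K18+Vim+ against K18+ (limma, smallest adjusted p over all genes 0.863), and 4.27% of genes had an unadjusted p under 0.05, among the members ITGAV. Lower in both lines were 6 members against 33.9% of genes, higher in both were 0 against 16.5%, and of opposite sign were 4 (FN1, ITGA5, ITGB6 and ITGB4) against 48.3%. The 6 became 3 after length correction and 4 after quantile normalization or relative to the median of all genes. No share over all genes was taken for these settings. HCC70 alone had 7 members lower, a count for which the share over all genes was not taken either. The median log2 ratio in HCC70 was -0.15 for the members beside -0.16 over all genes. The fitted difference of ITGAV was -1.09 ± 0.41 (SE, 2 libraries per population, limma adjusted p = 0.863), whereas FN1 differed by 0.07 ± 0.49 (limma adjusted p = 0.993). ITGAV differed by -0.67 when the library labelled K18+Vim+ of MDA-MB-468 was left out. Without the library labelled K18+Vim+ of MDA-MB-468 no member passed, and FN1 differed by 0.77 and ITGB4 by 0.80 (limma adjusted p = 0.904 for both). Without the HCC70 K18+Vim+ library that single library stood for the population, with a spread taken from the other groups on the assumption that it varies like them, so the p-values describe that library. ITGB4 (-3.29, limma adjusted p = 0.0035), ITGB6 (-3.23, 0.00269) and ITGA3 (-2.57, 0.00777) then passed as lower, beside 7.7% of genes, and ITGA5 (1.80, 0.0287) as higher, beside 4.34%.

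Between K18+Vim+ and K18+K14+ cells FN1 had the widest difference of the members in HCC70. It stood at 16.9 FPKM in the library labelled K18+Vim+ against 6.11 FPKM in K18+K14+ cells of MDA-MB-468 and at 81.6 against 10.3 FPKM in HCC70, with log2 ratios of 1.33 and 2.87, both at least 1 as for 0.851% of genes. The 1 other gene at least as high in both lines was NINL, a centrosomal protein gene singled out by this ranking. The fitted difference of FN1 was 2.10 ± 0.49 (SE, 2 libraries per population, limma adjusted p = 0.682), and 2.80 (limma adjusted p = 0.183) without the library labelled K18+Vim+ of MDA-MB-468. FN1 shares its low K18+K14+ values with the comparison of K18+K14+ and K18+, so these are not separate results. ITGB1 stood at 15.7 against 13.5 FPKM in MDA-MB-468 cells and at 95.9 against 49.9 FPKM in HCC70 cells. Higher in both lines were FN1, ITGA5, ITGB1 and ITGA2, or 4 of 10 members against 25.6% of genes. Lower in both was ITGB5, against 23.7% of genes, and 5 members had opposite signs, against 49.3%. HCC70 alone had 9 members higher, against 47.3% of genes. No member passed, as for 0% of genes, and 5.45% of genes had an unadjusted p under 0.05. Without the HCC70 K18+Vim+ library, again with 1 library standing for the population, ITGB4 (-3.93, limma adjusted p = 0.00181), ITGB6 (-2.74, 0.00417) and ITGA3 (-2.39, 0.00952) passed as lower, beside 8.57% of genes, and ITGA5 (2.14, 0.0118) as higher, beside 7.4%.

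**Figure D4:**
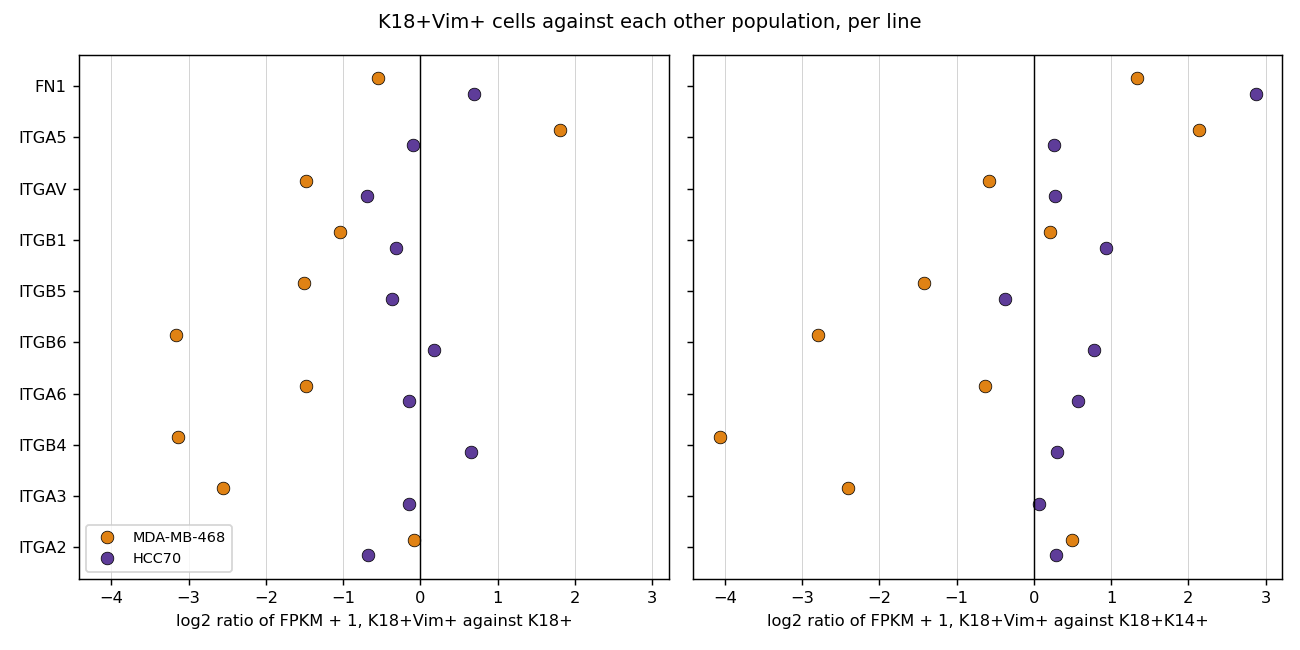
Log2 ratio of FPKM + 1 of K18+Vim+ cells against K18+ cells (left) and against K18+K14+ cells (right) for each member, 1 point per line. The HCC70 points lie within 1 of 0 except FN1 at 2.87 on the right, and the points from the library labelled K18+Vim+ of MDA-MB-468 reach -3.17 for ITGB6 on the left and -4.07 for ITGB4 on the right.

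Between the lines, averaged over the sorted populations, some members passed the test. The 3 libraries of a line are its 3 sorted populations and not replicates of the line. An SD per line is the spread between these sorts, and no p-value here measures the spread between cultures. Each line was grown in its own medium, and the part of the medium was not tested. Lower in MDA-MB-468 and past the threshold were 4 members, ITGA5, ITGB1, ITGB5 and ITGA2, beside 7.68% of all genes. Higher and past the threshold were 0 members and 4.54% of genes. ITGA5 averaged 1.72 ± 2.32 FPKM in MDA-MB-468 and 21.6 ± 2.78 FPKM in HCC70 (SD, n = 3 each), with a fitted log2 difference of -3.37 ± 0.46 (SE, limma adjusted p = 0.0141). Its 2 libraries from K18+K14+ and K18+ cells of MDA-MB-468 were below 1 FPKM, and the library labelled K18+Vim+ gave most of the MDA-MB-468 mean. ITGB1 averaged 20.8 ± 10.9 FPKM in MDA-MB-468 and 88.6 ± 35.6 FPKM in HCC70 (SD, n = 3 each), a log2 difference of -2.05 ± 0.33 (SE, limma adjusted p = 0.0197). ITGB5 averaged 17.5 ± 8.68 and 51.6 ± 7.47 FPKM (log2 difference -1.64, limma adjusted p = 0.038). ITGA2 averaged 0.739 ± 0.352 and 5.26 ± 2.23 FPKM (log2 difference -1.81, limma adjusted p = 0.0268).

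For ITGA5, ITGB1, ITGB5, ITGA3 and ITGA2 all 3 libraries labelled MDA-MB-468 lay below all 3 of HCC70, as for 21.0% of genes. The reverse held for no member and 20.1% of genes. Without both K18+Vim+ libraries the 4 calls held, at log2 differences of -4.00 for ITGA5, -1.81 for ITGB1, -1.28 for ITGB5 and -1.95 for ITGA2. Means were then 0.386 ± 0.221 FPKM in MDA-MB-468 and 21.2 ± 3.83 FPKM in HCC70 for ITGA5, and 23.4 ± 14.03 and 84.9 ± 49.5 FPKM for ITGB1 (SD, n = 2 each). They were 22.5 ± 0.876 and 55.9 ± 0.512 FPKM for ITGB5, and 0.666 ± 0.464 and 5.64 ± 3.01 FPKM for ITGA2. ITGA3 then passed as lower too (-1.14 ± 0.36, SE, limma adjusted p = 0.0479, but 0.0517 when HCC70 K18+Vim+ stayed in), with 55.5 ± 4.39 FPKM in MDA-MB-468 and 123 ± 12.7 FPKM in HCC70 (SD, n = 2 each). ITGB4 passed as higher (1.41 ± 0.38, SE, limma adjusted p = 0.0274), with 159 ± 70.1 and 56.7 ± 9.93 FPKM (SD, n = 2 each). In that fit 15.5% of genes passed as lower and 11.5% as higher. ITGB6, ITGAV and ITGA6 did not pass in either fit, and nor did FN1. Its log2 difference was -1.28 ± 0.40 (SE, limma adjusted p = 0.0811) with all libraries and -0.82 ± 0.33 (SE, limma adjusted p = 0.101) without both K18+Vim+ libraries.

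No member passed between lines when the low genes were kept in the fit (limma adjusted p = 0.122 to 0.157 for those 4), and length correction moved ITGB5 to 0.0504. The calls of ITGB1, ITGB5 and ITGA2 ended without any 1 of the 4 K18+K14+ and K18+ libraries, with a limma adjusted p of up to 0.105 for ITGB1, 0.152 for ITGB5 and 0.19 for ITGA2, and that of ITGA5 ended without either K18+ library (0.0682 without HCC70 K18+ and 0.0612 without MDA-MB-468 K18+).

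**Figure D5:**
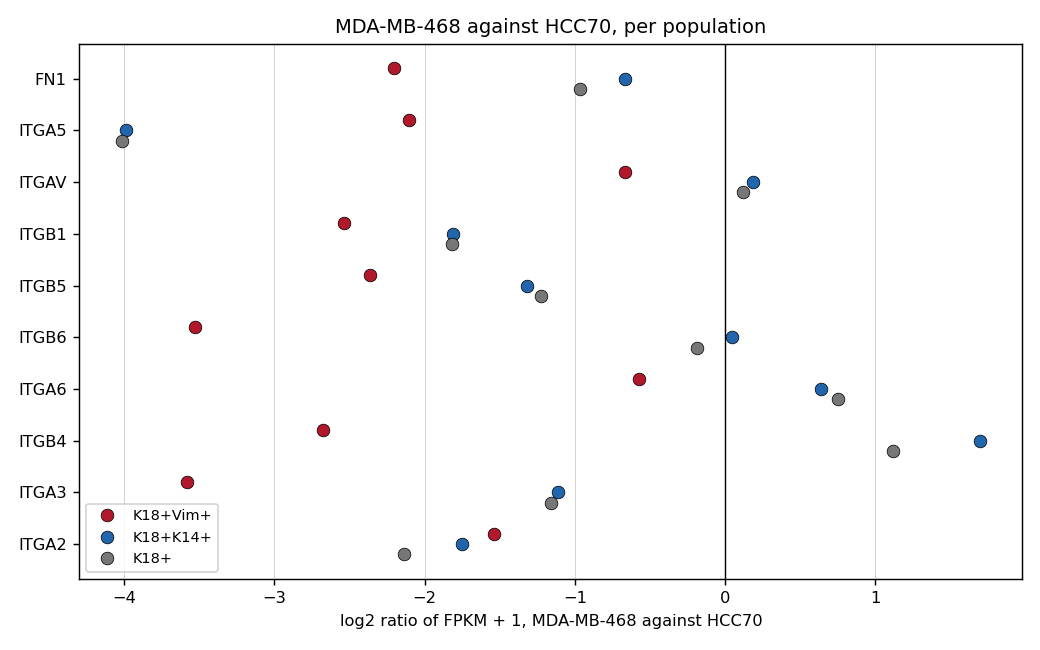
Log2 ratio of FPKM + 1 of MDA-MB-468 against HCC70 for each member, 1 point per population. ITGA5 and ITGB1 lie left of 0 in all populations, and ITGB4 lies at 1.69 in K18+K14+ and 1.12 in K18+ cells but at -2.68 in the libraries labelled K18+Vim+.

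Order of the levels can be read per length within a line. In the HCC70 K18+ library ITGA3 was highest at 132 FPKM and ITGB1 next at 119.9 FPKM, values that differ less than ITGB1 varied over the 3 HCC70 libraries. ITGB5, FN1 and ITGB4 followed at 55.5, 50.1 and 49.7 FPKM and are likewise within their spread of each other. ITGA5, ITGB6 and ITGAV stood between 15.4 and 23.9 FPKM, and ITGA2 and ITGA6 at 7.77 and 5.23 FPKM. In the MDA-MB-468 K18+ library ITGB4 led at 109 FPKM, before ITGA3 at 58.6 FPKM and ITGB1 at 33.3 FPKM, and ITGA2 and ITGA5 came last at 0.994 and 0.542 FPKM.

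Other genes of the adhesion machinery were counted from lists chosen with earlier results of these data known. Of 17 other integrin subunit genes 8 passed the filter, and ITGB3 was at the floor of 0.1 FPKM in all libraries. In K18+K14+ against K18+ cells 2 of these 8 were higher and 3 lower in both lines, beside 20.2% and 43.7% of all genes. ITGAE, the partner of ITGB7 on lymphocytes that bind E-cadherin, had log2 ratios of 0.46 in MDA-MB-468 and 0.38 in HCC70. ITGB7 itself had 10.6 against 20.8 FPKM in MDA-MB-468 and 4.31 against 5.20 FPKM in HCC70. In K18+Vim+ against K18+ cells ITGA2B, known as the platelet fibrinogen receptor subunit, stood at 11.2 FPKM in the library labelled K18+Vim+ of MDA-MB-468 against 2.57 FPKM and at 11.0 against 3.69 FPKM in HCC70. None of the 8 passed the test in any comparison with all libraries in the fit. Without both K18+Vim+ libraries ITGA7 passed between the lines as lower in MDA-MB-468 (log2 difference -3.03, limma adjusted p = 0.000478). ITGB2 (2.33, 0.00141) and ITGB7 (1.47, 0.017) then passed as higher. In that fit 15.5% of genes passed as lower and 11.5% as higher.

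Of 40 adaptor genes that link integrins to actin and to signalling 38 were tested. In K18+K14+ against K18+ cells 19 were lower and 7 higher in both lines, beside 43.7% and 20.2% of all genes. The median log2 ratios were -0.33 in MDA-MB-468 and -0.16 in HCC70, beside -0.17 and -0.15 over all genes. DOCK1, an exchange factor for Rac, stood at 3.63 against 10.8 FPKM in MDA-MB-468 cells and at 8.34 against 13.4 FPKM in HCC70 cells, and the tensin gene TNS3 at 4.37 against 9.43 and 9.77 against 15.9 FPKM. No adaptor passed between populations. With all libraries in the fit 3 of the 38 passed between the lines, all lower in MDA-MB-468. Of all genes 7.68% passed as lower and 4.54% as higher. The 3 adaptors were named after their values were seen. They were ZYX, which encodes zyxin of focal adhesions (log2 difference -1.99, limma adjusted p = 0.0257), TGFB1I1, which encodes Hic-5 of the paxillin family (-2.21, 0.0157), and RSU1, a partner of the kinase complex at integrin tails (-1.41, 0.0469). Without both K18+Vim+ libraries PTK2 and LPXN also passed as lower. VCL, FLNA, CAV1, NEDD9, ITGB1BP1 and CRK then passed as higher, with log2 differences of 1.17 to 1.97 (limma adjusted p = 0.0159 to 0.0479). In that fit 15.5% of genes passed as lower and 11.5% as higher.

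Of 30 genes of integrin ligands and partners 23 were tested, and none passed between populations. In K18+K14+ against K18+ cells 10 were lower and 5 higher in both lines, beside 43.7% and 20.2% of all genes. LAMB1, which encodes a laminin beta chain, had 27.4 against 72.0 FPKM in MDA-MB-468 and 4.63 against 8.55 FPKM in HCC70. TGFB1, a growth factor released from its latent form by ITGB6 and ITGAV, had 8.49 against 46.6 FPKM in MDA-MB-468 and 9.87 against 16.9 FPKM in HCC70. Between K18+Vim+ and K18+K14+ cells TGFB1 stood at 24.1 FPKM for the library labelled K18+Vim+ of MDA-MB-468 against 8.49 FPKM and at 27.3 against 9.87 FPKM in HCC70. Between the lines 8 of the 23 passed, 5 lower and 3 higher in MDA-MB-468, beside 7.68% and 4.54% of all genes, and those named were chosen after their values were seen. Among those lower were LAMA3 and LAMB3, which encode laminin chains of the epithelial basement membrane (log2 differences -3.31 and -3.14, limma adjusted p = 0.0373 and 0.0266), and LAMC1 and CD9. Higher were LAMB1, CD81 and the matricellular gene CCN2. All 11 calls of the adaptor and ligand lists between lines held without both K18+Vim+ libraries. Of the ligand list CCN1 (2.18, limma adjusted p = 0.00256) and THBS1 (1.78, 0.0118) then passed as higher too. NPNT (-1.66, 0.00941) then passed as lower. None of the 11 calls held with the low genes kept in the fit, where 0 genes passed. Without any 1 of the K18+K14+ and K18+ libraries, 206 to 326 genes passed between lines in place of 1522.

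Genes whose levels ran most like those of a member over the 6 libraries were taken from 11795 candidates by Pearson correlation of log2(FPKM + 1), a description over points that share lines and sorts. For FN1 these were SPATS2 (r = 0.984), CCDC91 (0.982), PBLD (0.979), NAA20 (0.978) and CTBP2 (0.978). CCDC91 stood at 4.20 FPKM in K18+K14+ against 8.88 FPKM in K18+ cells of MDA-MB-468 and at 5.99 against 16.9 FPKM in HCC70. For ITGB4 they were MGP (0.997), GGT6, EPS8L2, TCIRG1 and INF2, and for ITGB6 CASP10 (0.997), SCNN1A, TFAP2C, ARHGAP30 and AKR1B10. Like ITGB4 and ITGB6 themselves, MGP and SCNN1A were lowest in the library labelled K18+Vim+ of MDA-MB-468, where MGP stood at 167 against 885 to 4344 FPKM in the other 5 and SCNN1A at 4.52 against 32.9 to 68.7 FPKM. Over the 5 libraries without it, taken after seeing the data, r was 0.978 to 0.989 for the genes named for FN1. It was 0.976 to 0.992 for those of ITGB4 and 0.866 to 0.987 for those of ITGB6. These genes had been picked over 6 libraries that include those 5, so a high r is partly set by that choice and is no separate check.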

How the data were processed

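The deposited table gives FPKM per Entrez Gene ID for each of the 6 libraries, made by the authors. TopHat2 and GRCh37 are named in the submitters' processing notes. Their versions, the counting tool, the annotation and the strand setting are not given in sources used here. RNA came from fixed cells, per the labels' protocols. Values run from a floor of 0.1 to a ceiling of 10000 FPKM. Of 18807 rows, 7 with a blank were left out, and 5 IDs listed in duplicate kept their row of higher mean. Symbols came from RefSeq GRCh38.p14 for 18732 IDs, with 63 unmatched.

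The filter required 1 FPKM on average over the libraries. The model, fitted to log2(FPKM + 1) by lmFit and eBayes with trend (limma 3.58.1, R 4.3.3), had population and line as terms, all libraries in 1 fit and 2 residual degrees of freedom. Populations are paired by the cell line in the labels. Benjamini-Hochberg adjustment of p-values ran over all genes tested. The log scale understates differences of low genes. Alternatives were other pseudocounts and filters, quantile normalization, no trend, no line term, libraries left out and a length correction. The length correction took, per library, the residual of a smooth curve (loess, span 0.5) of the log2 deviation on the longest coding transcript of GENCODE, which 99.9% of tested genes had. The fit was also run on simulated data, with the same spread for every gene and shifts alike in both lines. These settings differ from the data, so that run checks the code alone. Promoter sequences are from RefSeq. Tables were made with Python 3.11.15, pandas 2.3.3, numpy 2.4.6 and matplotlib 3.10.9. All members were named, with list genes chosen by the smaller of the 2 absolute log2 ratios of like sign. Members and lists were chosen with earlier results of these data known. 1 gene of the ligand list is counted but not reported by name here.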

Additional observations from a re-analysis of the deposited data

Results flagged for a closer look

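A member was singled out where its log2 ratio had opposite signs in the 2 lines, which was so for 10 results. None of these differences between lines was tested, since each line has 1 library per population. In K18+K14+ against K18+ this was ITGB5, at -0.08 in MDA-MB-468 and 0.02 in HCC70, a difference of -0.094. The other 9 all involve the library labelled K18+Vim+ of MDA-MB-468. In K18+Vim+ against K18+, FN1 stood at -0.55 in MDA-MB-468 and 0.69 in HCC70, a difference of -1.24, and ITGA5 at 1.81 and -0.10, a difference of 1.91. ITGB6 stood at -3.17 and 0.17, a difference of -3.34, and ITGB4 at -3.14 and 0.66, a difference of -3.80. In K18+Vim+ against K18+K14+ the differences, MDA-MB-468 minus HCC70, were -0.85 for ITGAV, -3.57 for ITGB6, -1.21 for ITGA6, -4.37 for ITGB4 and -2.47 for ITGA3.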

How the results depend on the processing

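The count of genes passed stayed at 0 in the 3 comparisons of populations without the replicate block for line, with only the libraries compared, at both other pseudocounts, with either other filter, after quantile normalization, without trend and after length correction. Leaving out each library in turn gave 0 to 1 genes in K18+K14+ against K18+, 0 to 1500 in K18+Vim+ against K18+ and 0 to 1988 in K18+Vim+ against K18+K14+, the high counts without HCC70 K18+Vim+. Between the lines the count was 1522, against 3366 without both K18+Vim+ libraries, 0 with no filter and 206 to 3360 with each library left out. The cause was not tested. Members lower in both lines numbered 5 in K18+K14+ against K18+ and 3 in K18+Vim+ against K18+ after length correction, and 9 were higher in K18+Vim+ against K18+K14+ in HCC70 alone, and these counts were added after seeing the data. ITGB5 in K18+K14+ against K18+ turned to 0.078 after quantile normalization and 0.25 after length correction, and ITGA3 to 0.12 after length correction. Between lines ITGB4 turned to -0.021 after quantile normalization, and ITGAV to 0.15 without both K18+Vim+ libraries, 0.025 after quantile normalization and 0.054 after length correction. With each library left out, signs turned in K18+K14+ against K18+ for ITGB4 (-0.60 to 1.88), ITGB5 (-0.34 to 0.28), ITGB6 (-1.44 to 0.46), ITGA3 (-0.81 to 0.45) and ITGA5 (-0.82 to 0.14). In K18+Vim+ against K18+ they turned for FN1 (-0.62 to 0.77), ITGB4 (-3.29 to 0.80), ITGB6 (-3.23 to 0.23) and ITGA5 (-0.093 to 1.80). In K18+Vim+ against K18+K14+ they turned for ITGB4 (-3.93 to 0.16), ITGB6 (-2.74 to 0.72), ITGA3 (-2.39 to 0.052), ITGA6 (-0.66 to 0.60) and ITGAV (-0.56 to 0.26), and between lines for ITGB4 (-0.78 to 1.41) and ITGAV (-0.27 to 0.15). FN1 in K18+K14+ against K18+ kept its sign throughout, between -2.49 and -1.57 with each library left out. Such fits take the absent value from the line term. Read depth is unknown, so the counting error of values near the floor, as for ITGA5 and ITGA2 in MDA-MB-468, cannot be given.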
